A study of Mus musculus with 8 samples.

Results

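The nuclear genes for respiratory complexes III and IV and for ATP synthase were described in heart ventricles of banded mice. Members were all genes with a probe set annotated to exactly 1 symbol that begins with Uqcr, with Cox and a digit from 4 to 8, or with Atp5. Where a gene had several, the one highest on average over the 8 arrays stood for it. This gave 42 of the 18193 genes with such a probe set, 8 for complex III, 17 for complex IV and 17 for ATP synthase. Of these, 37 passed the filter (a log2 value above 5 in at least 4 of the 8 arrays, whatever the group) and are called measured. All mice were male, on an FVB background and 8 to 12 weeks old, and all had an ascending aortic band, which makes the ventricle pump against a higher pressure, for 1 week. The 4 wild-type mice were set against 4 labelled transgenic, in which the mlc2v promoter drove CHF1/Hey2, a transcriptional repressor, in myocardium. Each mouse gave 1 array, and values are the deposited log2 expression values (GCRMA). Hearts without a band were not analysed here, and ventricle RNA mixes heart muscle with other cells.

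Complex III passes electrons from ubiquinol to cytochrome c, complex IV (cytochrome c oxidase) passes them on to oxygen, and the proton gradient that both help to build drives ATP synthase, which makes most of the ATP of a beating heart. Subunits 6a, 7a and 8 of complex IV exist in a heart form (Cox6a2, Cox7a1, Cox8b), found in striated muscle, and a liver form (Cox6a1, Cox7a2, Cox8a), found in most tissues, and the heart forms come to prevail in muscle as it matures. The question put to these genes was whether extra CHF1/Hey2 in the myocardium goes with another level of them under pressure load.

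Hey2 was no higher in the arrays with the transgenic label. Its probe set read 5.96 ± 0.24 there and 6.07 ± 0.47 in the wild-type arrays (SD, n = 4 per group; exact two-sided permutation p = 0.771), and whether it reads the transgene is not known. So the labels could not be checked from it, and each direction below rests on them. The arrays were unlike each other: over the 9607 genes fitted, 3572 genes (37.2%) in transgenic replicate 2 and 891 (9.27%) in transgenic replicate 3 lay more than 1 log2 unit from the median of the other arrays, against 72 to 149 in each remaining array. Results are therefore also given without both. Of the control probe sets that read RNA quality, the 3′ minus 5′ difference of Gapdh lay between -0.28 and -0.11 in all 8 arrays, and that of Actb between 0.62, in transgenic replicate 2, and 1.21.

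The promoters of 5 of the 6 isoform genes (Cox6a2 had no entry) and of Atp5e, the member with the smallest limma p, are shown because the isoform contrast and Atp5e are the results described at most length. Each line gives the 250 bases before the RefSeq start of the gene (build GRCm38.p6), read 5′ to 3′ along the gene, and capitals mark matches on either strand to NRF1, GABP (CCGGAAG), ERR (TCAAGGTCA), CCAAT, the E-boxes CACGTG and CACGCG, or the MEF2 motif. NRF1, GABP and ERR are known regulators of nuclear genes for mitochondrial proteins, MEF2 is known for muscle genes, and Hey proteins are known to bind E-boxes.
Cox6a1, chr5:115348959-115349208, strand -: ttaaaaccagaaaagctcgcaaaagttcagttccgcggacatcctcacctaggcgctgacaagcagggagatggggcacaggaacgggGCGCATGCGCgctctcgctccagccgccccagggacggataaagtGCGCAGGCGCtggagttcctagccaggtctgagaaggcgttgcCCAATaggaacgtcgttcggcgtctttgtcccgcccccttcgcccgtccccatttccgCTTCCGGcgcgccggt
Cox7a1, chr7:30183921-30184170, strand +: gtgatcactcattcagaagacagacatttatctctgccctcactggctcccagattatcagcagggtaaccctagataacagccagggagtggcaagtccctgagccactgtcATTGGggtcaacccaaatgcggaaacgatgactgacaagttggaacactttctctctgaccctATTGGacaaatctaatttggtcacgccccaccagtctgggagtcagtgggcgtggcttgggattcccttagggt
Cox7a2, chr9:79759854-79760103, strand -: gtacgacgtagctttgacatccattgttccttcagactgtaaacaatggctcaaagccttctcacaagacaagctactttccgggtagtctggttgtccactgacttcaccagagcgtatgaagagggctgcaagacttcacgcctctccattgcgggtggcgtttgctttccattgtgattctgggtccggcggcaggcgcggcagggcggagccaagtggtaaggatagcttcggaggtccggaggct
Cox8a, chr19:7217617-7217866, strand -: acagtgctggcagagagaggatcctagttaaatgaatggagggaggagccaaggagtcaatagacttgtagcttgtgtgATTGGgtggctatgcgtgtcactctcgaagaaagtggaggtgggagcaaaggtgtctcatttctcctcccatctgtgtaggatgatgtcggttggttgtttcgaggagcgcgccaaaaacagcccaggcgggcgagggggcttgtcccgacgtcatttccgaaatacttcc
Cox8b, chr7:140900447-140900696, strand -: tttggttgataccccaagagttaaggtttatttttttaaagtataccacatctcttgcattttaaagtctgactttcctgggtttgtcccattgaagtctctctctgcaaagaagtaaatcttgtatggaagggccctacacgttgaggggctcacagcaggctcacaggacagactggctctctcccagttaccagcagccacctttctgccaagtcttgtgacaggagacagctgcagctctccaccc
Atp5e, chr2:174464102-174464351, strand -: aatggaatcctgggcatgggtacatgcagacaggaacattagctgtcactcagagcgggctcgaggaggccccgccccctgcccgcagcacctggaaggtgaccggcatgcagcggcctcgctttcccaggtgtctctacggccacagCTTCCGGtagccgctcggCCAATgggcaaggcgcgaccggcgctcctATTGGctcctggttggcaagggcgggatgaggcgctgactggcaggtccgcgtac
The liver-isoform promoter of Cox6a1 held 2 NRF1 matches, 1 CCAAT and 1 GABP match, and that of Cox8a 1 CCAAT. The Cox7a1 promoter held 2 CCAAT matches, the Cox7a2 and Cox8b promoters held none of these letters in this window, and Atp5e held 1 GABP and 2 CCAAT matches. Over the window of 300 bases, which adds the 50 bases after the start, promoters were found for 29 of the 37 measured members. The GABP letters were in 11 of the 29 (37.9%), against 12.9% of all 17492 protein-coding genes in the table, and the NRF1 letters in 8 (27.6%) against 7.17%. The letters CACGTG were in 4 (13.8%) against 8.91%, CACGCG in 4 (13.8%) against 13.7%, CCAAT in 15 (51.7%) against 42.3%, ERR in 1 (Atp5g3) against 0.377%, and MEF2 in 0 against 3.27%. An NRF1 match can overlap a CACGCG match. A match is a run of letters and was not tested as a binding site.

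No member passed the test between the groups. With limma and Benjamini-Hochberg adjustment over all 9607 genes, 0 of the 37 measured members were higher and 0 lower at an adjusted p of 0.05, as were 0.00% of all genes in either direction, and the members' adjusted p lay between 0.813 and 0.999. At an unadjusted limma p under 0.05 the count was 0 of 37, against 1.22% of all genes higher and 0.375% lower. A gene-by-gene unequal-variance test with the same Benjamini-Hochberg adjustment also passed 0 of the 37, and its share of all genes is not given here. At an unadjusted p under 0.05 that test had 4 of 37 members higher (Atp5a1, Atp5e, Cox4i1 and Uqcr10), against 1.29% of all genes, and 0 lower, against 0.208%. In 33 of the 37 members (89.2%) the transgenic mean was the higher one, as it was in 57.0% of all genes. The median difference was 0.11 on the log2 scale, or 1.08-fold, and that of all genes 0.061. Single differences ran from -0.11 (Uqcrb) to 0.41 (Atp5g2), and every 95% confidence interval lay within 1 log2 unit of 0. Of the members, 19 had a mean above 14. The median SD among wild-type arrays was 0.079 for members and 0.19 for all genes.

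**Figure D1:**
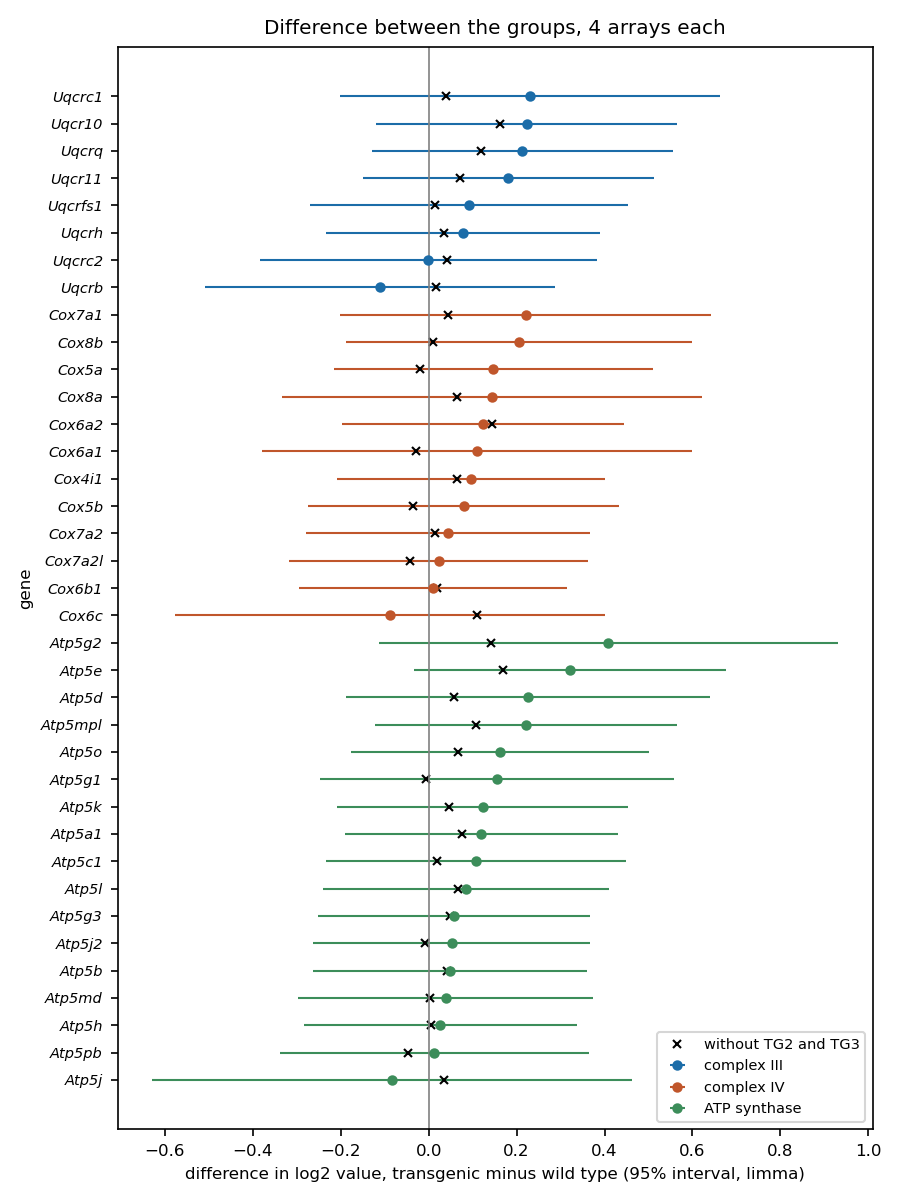
Difference in log2 value, transgenic minus wild type, for the 37 measured genes of complex III (blue), complex IV (orange) and ATP synthase (green), with limma 95% confidence intervals over 4 arrays a group; crosses give the difference without transgenic replicates 2 and 3. Every interval spans 0, and 33 points lie above 0.

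The lean to higher means was spread over 3 of the 4 transgenic arrays and was reduced without 2 of them. As deviations from the wild-type mean, the medians over members were 0.11, 0.14, 0.21 and -0.019 in transgenic replicates 1 to 4. In wild-type replicates 1 to 4 they were 0.053, 0.024, -0.046 and -0.027. Transgenic replicates 1, 2 and 3 thus lay above every wild-type array, with replicate 3 highest, and transgenic replicate 4 lay among them. Without transgenic replicates 2 and 3 the median difference was 0.041, with 30 of 37 members higher, against a median of 0.051 and 65.3% higher over all genes. Without transgenic replicate 3 alone it was 0.071, with 28 members higher (60.6% of all genes), and without transgenic replicate 2 alone 0.11, with 34 higher (55.9%). With array median centring 30 members were higher (54.4% of all genes) and with quantile normalization 29 (56.4%). The median over all genes was 0.030, 0.29, -0.018 and 0.069 in transgenic replicates 1 to 4. It was thus above that of the members in replicates 2 and 4 and below it in replicates 1 and 3.

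Markers of other cells moved in the same 2 arrays. The summed level of 10 fibroblast markers, all above the filter, was 14.95 in transgenic replicate 3, while the other 3 transgenic arrays ran from 16.61 to 16.87 and wild type from 16.74 to 16.95. In bulk tissue, fewer cells of a type and less RNA per cell cannot be told apart. The summed level of 8 macrophage markers was 12.33 in transgenic replicate 3 and 14.24 in replicate 2, against 13.18 to 13.67 in wild type. In transgenic replicate 2 the 8 endothelial and 5 smooth muscle markers summed to 13.44 and 14.13, against at most 12.99 and 13.31 in wild type. A sum follows its highest markers, and the markers of a list did not all move together. In that array Eng, Acta2 and C1qb were at their highest of the 8 arrays. Kdr, Myh11, Mylk and the macrophage marker Mrc1 were at their lowest there, at 8.52, 8.18, 8.81 and 8.52. The 10 cardiomyocyte markers summed to 18.25 in transgenic replicate 2, and the other 7 arrays ran from 18.48 to 18.58. The part of these markers in the members' values was not tested. None of the 6 skeletal muscle markers passed the filter, and neither did any of the 5 lymphocyte or 3 white fat markers on the array. Ucp1, which defines brown fat, lay between 2.20 and 2.28 in all arrays, and of the 4 brown fat markers only Cidea passed. Of 4 atrial markers 3 passed, with a summed level of 11.82 to 12.80 in transgenic and 11.46 to 12.26 in wild-type arrays, while Bmp10 lay at or below 2.06. Of 3 erythroid markers on the array only 1 passed.

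**Figure D2:**
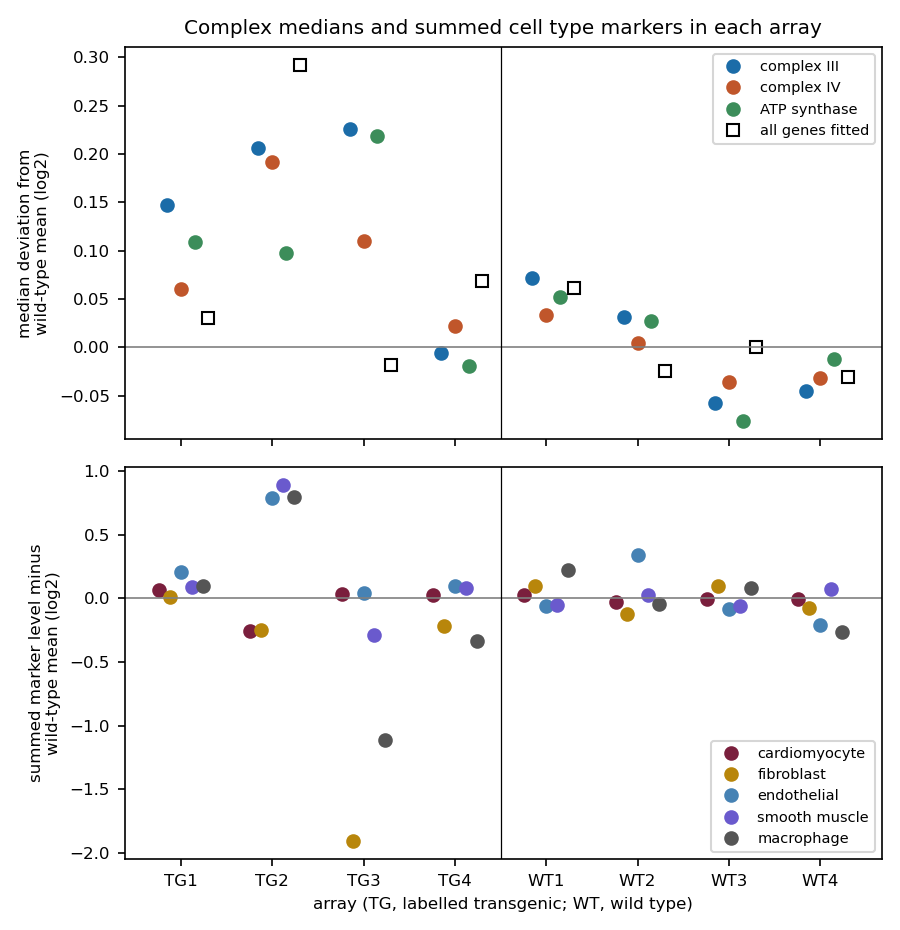
Top, median deviation from the wild-type mean (log2) of the measured genes of each complex and of all genes fitted, per array; bottom, summed level of 5 marker lists minus its wild-type mean (log2), per array. Complexes III and IV are highest in transgenic replicates 2 and 3 and ATP synthase in transgenic replicate 3; in these 2 arrays the fibroblast sum is 16.61 and 14.95 and the macrophage sum 14.24 and 12.33.

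The complexes differed from each other by less than the spread between arrays. The median difference was 0.14 for complex III (6 of 8 higher), 0.10 for complex IV (11 of 12) and 0.11 for ATP synthase (16 of 17), and the SD of the array medians among transgenic hearts was 0.10, 0.073 and 0.097. Complex III medians were 0.15, 0.21, 0.23 and -0.0059 in transgenic replicates 1 to 4, those of complex IV 0.060, 0.19, 0.11 and 0.022, and those of ATP synthase 0.11, 0.098, 0.22 and -0.019. No wild-type array lay beyond 0.072 above or 0.076 below in any complex. Each complex was thus above all wild-type arrays in transgenic replicates 1, 2 and 3 and within them in transgenic replicate 4. Without transgenic replicates 2 and 3 the medians were 0.040, 0.017 and 0.045. No test was made of a median over members.

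For 5 members the 4 transgenic values all lay above the 4 wild-type values, 13.5% of the 37, against 2.00% of all genes. They were Uqcr10 of complex III, Cox4i1 of complex IV, and Atp5a1, Atp5e and Atp5mpl of ATP synthase, and for none did the groups separate the other way (0.479% of all genes). The gaps between the lowest transgenic and highest wild-type value were small, from 0.0043 (Atp5a1) to 0.047 (Atp5e). The same 5 separated without transgenic replicates 2 and 3, and so did Cox6c, with 6.32% of all genes. With each array centred on its median 0 of the 37 separated, against 1.16% of all genes, and with a further quantile normalization 2 did (Atp5e and Cox4i1), against 1.59%. Without transgenic replicate 2 alone 6 separated (3.08% of all genes). The separation thus depended on the scaling of the arrays.

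**Figure D3:**
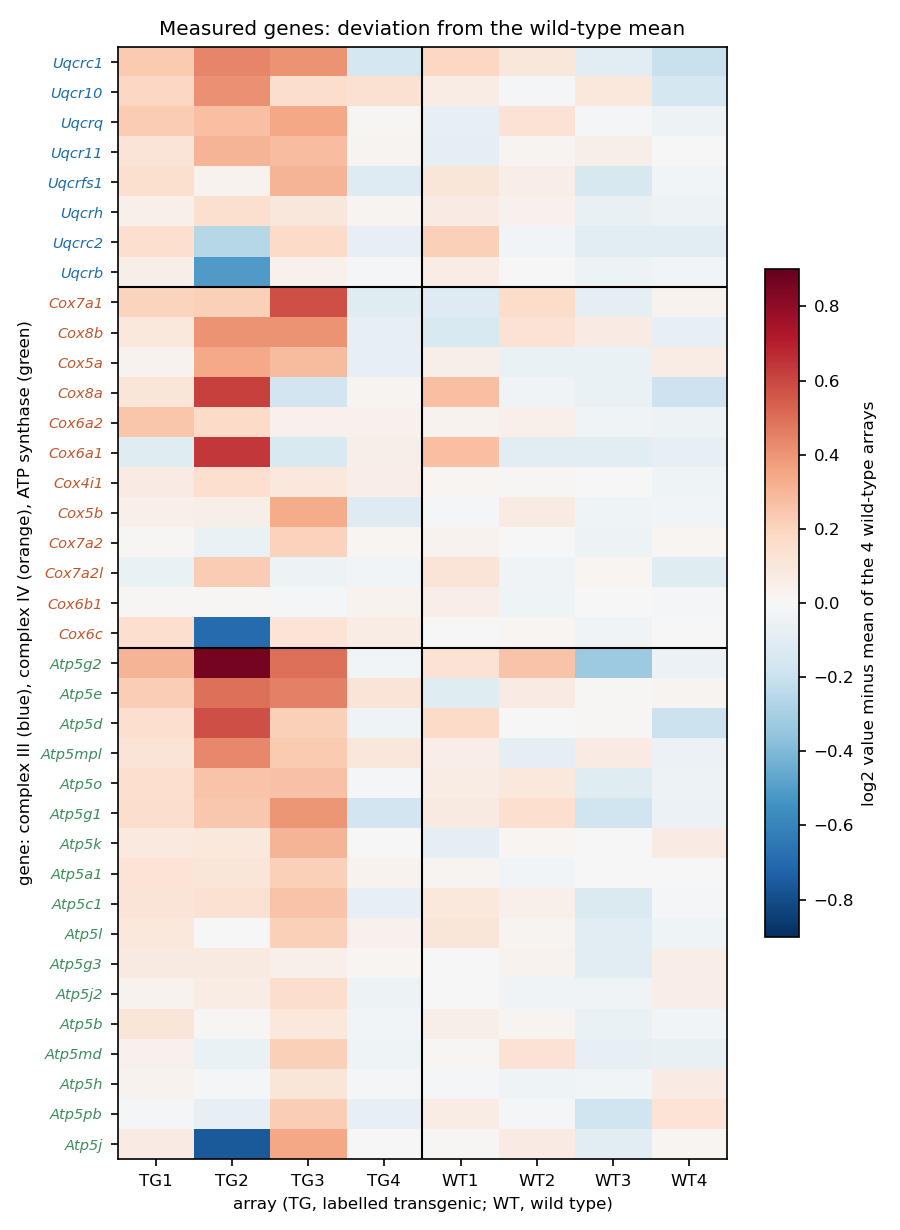
Log2 value minus the mean of the 4 wild-type arrays (colour) for each of the 37 measured genes (rows, by complex) in each array (columns). Transgenic replicate 2 holds both the strongest positive deviations, such as Atp5g2 at 0.86, and the strongest negative ones, such as Atp5j at -0.75.

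In complex III, Uqcrc1 and Uqcrc2 encode the core proteins on the matrix side. Uqcrc1 had values of 13.54, 13.74, 13.70 and 13.14 (transgenic replicates 1 to 4) and 13.49, 13.40, 13.21 and 13.10 (wild-type replicates 1 to 4). Transgenic replicates 2 and 3 were highest and the groups overlapped, and the means lay 0.23 (95% confidence interval -0.20 to 0.66) apart, or 0.040 without these 2 arrays. Uqcrc2 had values of 15.19, 14.78, 15.21 and 14.96 (transgenic replicates 1 to 4) and 15.25, 15.01, 14.94 and 14.94 (wild-type replicates 1 to 4). Transgenic replicate 2 was the lowest of the 8 and wild-type replicate 1 the highest, and the group means were nearly equal, with a difference of -0.00076 (95% confidence interval -0.38 to 0.38) and of 0.085 without transgenic replicate 2. Uqcrfs1, the Rieske iron-sulfur protein that takes the electron from ubiquinol, had values of 13.91, 13.80, 14.08 and 13.66 (transgenic replicates 1 to 4) and 13.88, 13.83, 13.63 and 13.75 (wild-type replicates 1 to 4). It was highest in transgenic replicate 3, with a difference of 0.091 (95% confidence interval -0.27 to 0.45), and 0.014 without transgenic replicates 2 and 3.

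The small subunits Uqcr10, Uqcrq and Uqcr11 had the smallest p of the complex. Uqcr10 had values of 12.87, 13.10, 12.84 and 12.83 (transgenic replicates 1 to 4) and 12.76, 12.68, 12.79 and 12.53 (wild-type replicates 1 to 4). The groups did not overlap, and the difference was 0.22 (95% confidence interval -0.12 to 0.57), with 0.16 without transgenic replicates 2 and 3. Its other probe set above the filter differed by 0.19, but there the groups overlapped, with transgenic replicate 4 at 6.22 and wild-type replicate 3 at 6.24. Uqcrq had values of 13.14, 13.18, 13.26 and 12.92 (transgenic replicates 1 to 4) and 12.84, 13.04, 12.90 and 12.87 (wild-type replicates 1 to 4), where only transgenic replicate 4 fell among the wild-type values, and a difference of 0.21 (95% confidence interval -0.13 to 0.56). Uqcr11 had values of 13.47, 13.66, 13.64 and 13.38 (transgenic replicates 1 to 4) and 13.27, 13.38, 13.41 and 13.36 (wild-type replicates 1 to 4), again with only transgenic replicate 4 among the wild-type values, and a difference of 0.18 (95% confidence interval -0.15 to 0.51). Their limma adjusted p was 0.813 each. Uqcrh, the hinge protein, and Uqcrb differed by 0.078 and -0.11, and Uqcrb read 14.39 in transgenic replicate 2, below the 14.86 or more of every other array.

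Complex IV held the isoform pairs. Within an array the log2 value of the heart form minus that of the liver form removes shifts common to both, and its level has no meaning of its own, since the forms are read by different probes. For none of the 3 pairs did this contrast differ between the groups beyond the spread between mice. For Cox6a it differed by 0.014 (95% confidence interval -0.47 to 0.49; exact two-sided permutation p = 0.971), for Cox7a by 0.18 (-0.13 to 0.49; p = 0.200, exact permutation) and for Cox8 by 0.063 (-0.48 to 0.61; p = 0.800, exact permutation). Adjusted over the 3 pairs, the exact permutation p was 0.971, 0.600 and 0.971, and the smallest p that 4 against 4 arrays allow is 0.0286. The sign for Cox6a turned to -0.10 without transgenic replicate 1, to -0.041 without transgenic replicate 3 and to -0.065 without wild-type replicate 1, and that for Cox8 to -0.11 without transgenic replicate 3 and to -0.073 without wild-type replicate 1. That for Cox7a kept its sign but was 0.029 without transgenic replicates 2 and 3.

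In the probe sets kept, the heart forms had higher transgenic means by 0.12 to 0.22, and the arrays behind them differed by gene. Cox7a1 had values of 13.91, 13.93, 14.29 and 13.60 (transgenic replicates 1 to 4) and 13.60, 13.88, 13.63 and 13.75 (wild-type replicates 1 to 4). Transgenic replicate 3 stood above the rest and transgenic replicate 4 lay within wild type, with a difference of 0.22 (95% confidence interval -0.20 to 0.64) and of 0.044 without transgenic replicates 2 and 3. Cox8b had values of 13.72, 14.03, 14.03 and 13.56 (transgenic replicates 1 to 4) and 13.49, 13.76, 13.70 and 13.56 (wild-type replicates 1 to 4). Here transgenic replicates 2 and 3 were both high, with a difference of 0.21 (95% confidence interval -0.19 to 0.60), and 0.011 without them. Cox6a2 had values of 14.26, 14.18, 14.04 and 14.05 (transgenic replicates 1 to 4) and 14.04, 14.05, 13.98 and 13.96 (wild-type replicates 1 to 4). It was highest in transgenic replicate 1, and its difference of 0.12 (95% confidence interval -0.20 to 0.44) was 0.14 without transgenic replicates 2 and 3.

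The liver forms Cox6a1 and Cox8a went with transgenic replicate 2 instead. Cox6a1 had values of 13.33, 14.07, 13.30 and 13.49 (transgenic replicates 1 to 4) and 13.71, 13.34, 13.34 and 13.36 (wild-type replicates 1 to 4). Transgenic replicate 2 and wild-type replicate 1 stood above the other 6 arrays, which lay between 13.30 and 13.49, and the difference of 0.11 (95% confidence interval -0.38 to 0.60) turned to -0.066 without transgenic replicate 2. Cox8a had values of 10.18, 10.69, 9.90 and 10.10 (transgenic replicates 1 to 4) and 10.35, 10.05, 10.02 and 9.89 (wild-type replicates 1 to 4). The same 2 arrays were highest, and the difference of 0.14 (95% confidence interval -0.33 to 0.62) was -0.014 without transgenic replicate 2. Other probe sets of both genes gave the same picture, with Cox6a1 at 13.15 in transgenic replicate 2 and 12.58 in wild-type replicate 1 against at most 12.29 elsewhere, and Cox8a at 10.62 and 10.35 against at most 10.11. In these 2 arrays the summed atrial markers were 12.80 and 12.26 and the macrophage markers 14.24 and 13.67, each the highest of its group. Not every list did so. In wild-type replicate 1 the endothelial and smooth muscle sums were 12.59 and 13.18, while wild type reached 12.99 and 13.31. The cardiomyocyte sum was lowest of all arrays in transgenic replicate 2, at 18.25, and highest of wild type in wild-type replicate 1, at 18.54. Whether the markers and the liver forms are related was not tested. Cox7a2 had values of 14.40, 14.33, 14.60 and 14.41 (transgenic replicates 1 to 4) and 14.42, 14.38, 14.34 and 14.41 (wild-type replicates 1 to 4). In this probe set transgenic replicate 2 held the lowest value, unlike the other liver forms. Cox7a2 differed by 0.045 there (95% confidence interval -0.28 to 0.37), with -0.011 without transgenic replicate 3. Its other probe set differed by 0.050 and did not show this low value. There transgenic replicate 2, at 14.24, lay above wild-type replicates 2, 3 and 4, at 14.20, 14.19 and 14.23.

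**Figure D4:**
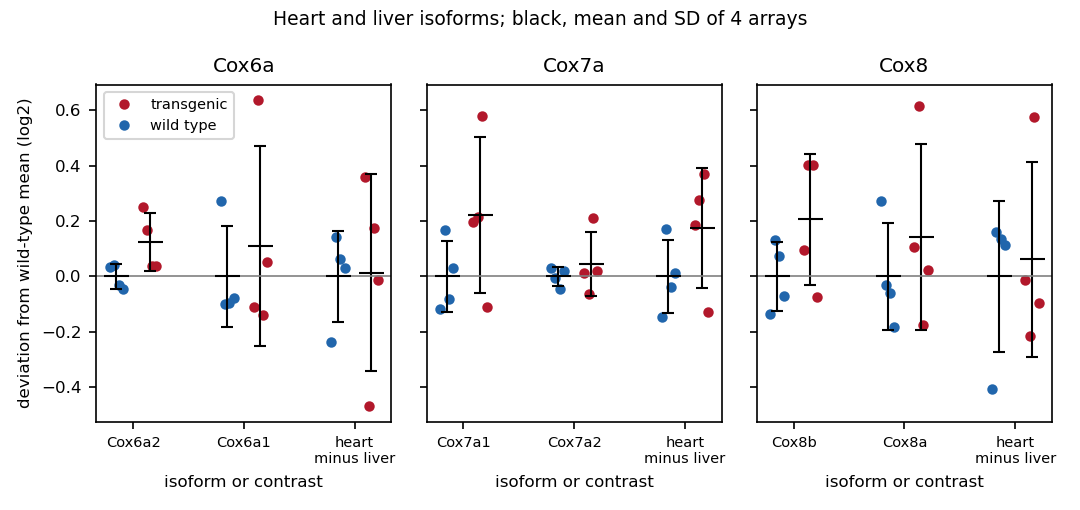
Deviation from the wild-type mean (log2) of the heart form, the liver form and their difference for Cox6a, Cox7a and Cox8, per array (points), with mean and SD of 4 arrays (black). The groups overlap in every column, and in transgenic replicate 2 Cox6a1 and Cox8a stand 0.64 and 0.62 above the wild-type mean.

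Cox4i1, the common form of subunit 4, had values of 14.77, 14.85, 14.80 and 14.76 (transgenic replicates 1 to 4) and 14.72, 14.71, 14.71 and 14.66 (wild-type replicates 1 to 4). The groups did not overlap, by a gap of 0.037, and the difference was 0.095 (95% confidence interval -0.21 to 0.40). Cox5a, a subunit of the matrix side, had values of 14.67, 14.98, 14.92 and 14.56 (transgenic replicates 1 to 4) and 14.68, 14.57, 14.58 and 14.70 (wild-type replicates 1 to 4), with transgenic replicates 2 and 3 high, and its difference of 0.15 (95% confidence interval -0.21 to 0.51) was -0.020 without them. Its other probe sets above the filter differed by 0.067 and 0.078. In the first of these transgenic replicate 2, at 14.43, lay below wild-type replicates 1 and 2, at 14.48 and 14.45. Cox6c read 13.43 in transgenic replicate 2, while the other 7 arrays ran from 14.09 to 14.27, and its other probe set showed the same, at 12.44 against at least 12.80. Without transgenic replicate 2 the remaining transgenic values of Cox6c all lay above the wild-type ones in the probe set kept. In the other probe set the groups still overlapped, with wild-type replicate 4 highest of all arrays at 13.29. Cox7a2l, a factor that joins complexes III and IV into supercomplexes, differed by 0.023, and by -0.045 without transgenic replicate 2. In the probe set kept, Cox5b differed by 0.079, and by -0.0060 without transgenic replicate 3, which stood 0.34 above the wild-type mean. The other Cox5b probe sets above the filter differed by 0.078, 0.11 and 0.064 over all arrays. In them transgenic replicate 3 stood less far above the wild-type mean, by 0.18, 0.25 and 0.12. Cox6b1 differed by 0.0093, with its sign turned by array median centring, and by 0.066 in its other probe set.

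Of the 5 members that did not pass the filter, all in complex IV, Cox4i2, the form of subunit 4 known from lung and low oxygen, lay between 2.43 and 2.68 in all arrays. The testis forms Cox6b2, Cox7b2 and Cox8c lay at 2.33 to 4.50, 2.36 to 2.45 and 1.43 to 1.47, and Cox6b2 exceeded 2.85 only in transgenic replicate 2. Cox7c is a common subunit, but its probe sets here stayed at or below 4.90, below the level at which differences can be read. With no filter, where limma took in these 5 as well, 0 of the 42 members passed at an adjusted p of 0.05. The share of all genes that passed with no filter is not given here.

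In ATP synthase the catalytic head is built of the alpha and beta subunits. Atp5a1, the alpha subunit, had values of 14.87, 14.86, 14.97 and 14.78 (transgenic replicates 1 to 4) and 14.78, 14.73, 14.75 and 14.75 (wild-type replicates 1 to 4). The groups did not overlap, though transgenic replicate 4 exceeded wild-type replicate 1 by only 0.0043, and the difference was 0.12 (95% confidence interval -0.19 to 0.43). Its other 2 probe sets above the filter differed by 0.069 and 0.26 with overlapping groups. Atp5b, the beta subunit, had values of 14.69, 14.59, 14.68 and 14.56 (transgenic replicates 1 to 4) and 14.63, 14.61, 14.52 and 14.56 (wild-type replicates 1 to 4), a difference of 0.049 (95% confidence interval -0.26 to 0.36) with overlapping groups. Of the central stalk, which turns within the head, Atp5c1 (gamma) and Atp5d (delta) differed by 0.11 and 0.23. Without transgenic replicates 2 and 3 they differed by 0.020 and 0.057, and Atp5c1 by 0.058 without transgenic replicate 3 alone and Atp5d by 0.11 without transgenic replicate 2 alone.

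Atp5e, the epsilon subunit of the central stalk, had the smallest limma p of all members. Its values were 13.19, 13.47, 13.43 and 13.09 (transgenic replicates 1 to 4) and 12.86, 13.05, 12.98 and 13.00 (wild-type replicates 1 to 4). Transgenic replicates 2 and 3 were highest and all 4 transgenic values exceeded the wild-type ones, with means of 13.29 ± 0.18 and 12.97 ± 0.077 (SD, n = 4 each). The difference was 0.32 (95% confidence interval -0.034 to 0.68), or 1.25-fold (limma unadjusted p = 0.0707, adjusted p = 0.813), and 0.17 without transgenic replicates 2 and 3.

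The c-ring, through which protons pass, is encoded by Atp5g1, Atp5g2 and Atp5g3, whose mature proteins are the same. Atp5g2 had values of 12.93, 13.48, 13.12 and 12.60 (transgenic replicates 1 to 4) and 12.75, 12.88, 12.29 and 12.57 (wild-type replicates 1 to 4). Transgenic replicate 2 stood highest, and the difference of 0.41 (95% confidence interval -0.11 to 0.93), the largest of all members at 1.33-fold, was 0.26 without that array and 0.14 without transgenic replicates 2 and 3. Atp5g1 had values of 14.15, 14.24, 14.39 and 13.83 (transgenic replicates 1 to 4) and 14.08, 14.15, 13.82 and 13.95 (wild-type replicates 1 to 4). It was highest in transgenic replicate 3 and overlapped widely, and the means lay 0.16 (95% confidence interval -0.25 to 0.56) apart, or -0.0070 without transgenic replicates 2 and 3. Atp5g3 had values of 14.67, 14.67, 14.63 and 14.60 (transgenic replicates 1 to 4) and 14.59, 14.62, 14.49 and 14.65 (wild-type replicates 1 to 4), which spanned less than 0.2 in all, and a difference of 0.057 (95% confidence interval -0.25 to 0.37).

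Atp5mpl, a small membrane protein of the synthase, had values of 12.68, 13.00, 12.80 and 12.67 (transgenic replicates 1 to 4) and 12.62, 12.48, 12.64 and 12.51 (wild-type replicates 1 to 4). The groups did not overlap, by a gap of 0.026, with a difference of 0.22 (95% confidence interval -0.12 to 0.56) and of 0.11 without transgenic replicates 2 and 3. Of the peripheral stalk, which holds the head still, Atp5o, Atp5h and Atp5pb differed by 0.16, 0.027 and 0.013 in the probe sets kept. The last 2 differed by -0.0018 and -0.056 without transgenic replicate 3. Over all arrays the other probe sets of these genes differed by more, at 0.19, 0.10 and 0.10. Atp5j differed by -0.083, and by 0.14 without transgenic replicate 2, with 12.97 in transgenic replicate 2 and no other array under 13.62. The remaining membrane subunits Atp5k, Atp5l, Atp5j2 and Atp5md differed by 0.12, 0.085, 0.052 and 0.039, and Atp5md by -0.019 without transgenic replicate 3.

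Members thus parted within transgenic replicate 2. There 28 of the 37 lay above and 9 below the wild-type mean, 4 by more than 0.5 above (Atp5g2, Cox6a1, Cox8a and Atp5d) and 3 by more than 0.5 below (Atp5j, Cox6c and Uqcrb). The SD over members of the deviation was 0.34 in that array, 0.17 in transgenic replicate 3 and at most 0.097 in the other 6. Of 28 further probe sets of members above the filter, 25 deviated in transgenic replicate 2 in the same direction as the probe set kept, and 27 had the same sign of difference between the groups.

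The partners of these complexes were described from lists chosen with earlier results of these data known. The partner list held 10 genes: cytochrome c1, itself a subunit of complex III, cytochrome c, the inhibitor of ATP synthase, carriers and others. Of the 9 measured, 6 had a higher transgenic mean, with a median of 0.068, and 0 passed. Among the 9 was Atp5md, which is also counted as a member of ATP synthase. The list also holds Ndufa4, whose name begins as those of the complex I genes below do. For comparison, 57.0% of all genes had a higher transgenic mean. Without transgenic replicate 3 the median of the 9 turned to -0.017, with 4 of 9 higher, and without transgenic replicates 2 and 3 it was 0.011. Cyc1, the cytochrome subunit of complex III, differed by 0.19 and Higd1a by 0.23 (0.058 and 0.041 without transgenic replicates 2 and 3). Of 28 measured assembly factors of complexes III, IV and V, 24 were higher in mean, with a median of 0.26 (0.062 without both arrays), and 0 passed. Sco2, a copper chaperone of complex IV, was 8.96 and 9.29 in transgenic replicates 2 and 3 and at most 8.14 in the other 6 arrays, with a difference of 0.70 (SE 0.37) that was 0.042 without them.

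Regulators of mitochondrial genes gave 9 of 15 higher (60.0%, against 57.0% of all genes), a median of 0.18 and 0 passing. Single differences in this list ran from -0.94 to 0.67, so the largest was a decrease, and 6 of the 15 were lower. Before adjustment, 2 of the 15 had a limma p below 0.05, both higher, against 1.22% of all genes. These were the nuclear receptors Esrra and Esrrb, with differences of 0.43 and 0.67 (0.17 and 0.26 without transgenic replicates 2 and 3). Esrra read 10.16, 10.77, 10.77 and 10.33 (transgenic replicates 1 to 4) against at most 10.18 in wild type. Without transgenic replicate 3 alone the list's median turned to -0.036, with 7 of 15 higher, and without transgenic replicates 2 and 3 it was 0.049. Subunits encoded in mitochondrial DNA were not analysed here. Complex I genes with their assembly factors (43 measured) had a median of 0.16, with 38 higher, and complex II (4 measured) a median of 0.15, with 4 higher, and both, at 0.037 and 0.054 without the same 2 arrays, lay close to the 0.051 of all genes. No difference between these groups of genes and complexes III, IV and ATP synthase was tested.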

How the data were processed

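Ventricle RNA of 8 mice was hybridised to Affymetrix Mouse Genome 430 2.0 arrays, with a single array a mouse (per the labels' protocols). Values were deposited by the authors on a log2 scale, and the submitters' processing notes name GCRMA (background correction by base composition, quantile normalization, probe set summary) without a version. Precision is limited by the number of arrays, which carry no depth. Groups came from the sample titles, which only number the samples, so p-values measure the spread between these arrays. Those of limma take that spread in part from all genes fitted. Of 45101 probe sets, 34945 had 1 symbol. Those above 5 in at least 4 arrays were kept, and per gene the one with the highest mean, which gave 9607 genes. Transgenic minus wild type was estimated without a block by lmFit and eBayes (limma 3.58.1, R 4.3.3), with Benjamini-Hochberg adjustment over all genes. The step was tested on simulated data. Isoform contrasts used exact permutation over arrays, with intervals from the pooled spread of both groups. Promoters are RefSeq's. The members, lists and alternatives were chosen with earlier results of these data known. Genes given array by array are the isoforms, catalytic and c-ring genes, the 3 smallest p of each complex and genes whose groups did not overlap; values of further members, among them Uqcrb, Cox6c and Atp5j, were chosen after they were seen. Alternatives changed the filter, scaling, probe set rule, model and test, and left out arrays.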

Additional observations from a re-analysis of the deposited data

Results flagged for a closer look

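In 5 of 88 groups of 4 values (37 members, 4 medians and 3 isoform contrasts in each group of mice) 1 array lay apart from the other 3 by the critical value of Dixon's test, which chance does in about 1 of 20 groups. In transgenic replicate 2, Cox6c was 13.43, with the next transgenic value at 14.18. Uqcrb was 14.39 in the same array, with the next at 14.88. Cox7a2l was 12.32 there, above the next at 12.07. In wild-type replicate 1, Cox6a1 was 13.71, above the next wild-type value of 13.36. The heart minus liver contrast of Cox8 was 3.14 in that array, below the next at 3.66.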

How the results depend on the processing

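No member passed under any alternative: the number was 0 with every filter, scaling, probe set rule, model and test tried and without any array, and the smallest adjusted p was 0.252, with limma's array weights. The share of all genes that passed is given only for the main fit, where it was 0.00% in either direction. So the 0 under the alternatives cannot be called particular to the members. The complex medians were not taken with array weights, and stayed above 0 in the alternatives where they were taken. Leaving out 1 array moved them over 0.11 to 0.20 for complex III, 0.081 to 0.14 for complex IV and 0.060 to 0.15 for ATP synthase, and without both transgenic replicates 2 and 3 those of complexes III and IV were 0.040 and 0.017. The isoform contrast of Cox6a was -0.020 with the mean of probe sets and -0.054 with the other probe set of each isoform, an alternative chosen after seeing the data, and ran from -0.10 to 0.17 with 1 array left out. That of Cox7a ran from 0.11 to 0.28 and that of Cox8 from -0.11 to 0.16, and without both transgenic replicates 2 and 3 they were 0.029 and -0.055. Over the probe sets kept for the 37 members the sign of the difference turned in 11 without both arrays, in 7 without transgenic replicate 2, in 5 without transgenic replicate 3, in 7 with array weights, in 3 with array median centring and in 4 with quantile normalization. The cause was not tested. Of the genes given array by array, without both arrays Atp5g1 was -0.0070, Cox5a -0.020, Cox6a1 -0.029 and Uqcrc2 0.041. With array weights Cox6a1 was -0.050 and Uqcrc2 0.16, and with the mean of probe sets Uqcrc2 was 0.028. With 1 array left out Cox6a1 ran from -0.066 to 0.20, Cox7a2 from -0.011 to 0.080, Cox8a from -0.014 to 0.25 and Uqcrc2 from -0.058 to 0.085. With the replicate number as a block 0 members passed and the smallest adjusted p was 0.845. The deviations of same-numbered mice correlated at 0.30, -0.0056, -0.33 and 0.20 for numbers 1 to 4, so the numbers were not taken as pairs. The median limma 95% interval of a member reached 0.34 to either side. Smaller differences could not be read by limma in single genes, even before adjustment. To pass after adjustment over all genes, a difference had to be larger than that. Limma draws the spread of each gene toward that of all genes. The median SD in transgenic and wild-type arrays was 0.14 and 0.079 for members, against 0.49 and 0.19 for all genes. So these widths do not come from the members' own spread alone. For Cox4i1 the limma SE was 0.13, with SDs of 0.042 and 0.027.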
